A study of Homo sapiens with 6 samples.

Results

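Mitochondrial ribosomal protein genes, the nuclear genes whose symbols begin MRPL or MRPS, were followed in cells labelled MIA PaCa-2, an established human line from a pancreatic ductal carcinoma. The members were the table rows whose Ensembl ID maps to a protein-coding gene with such a symbol followed by a number, which gave 77 of 35716 rows. Another 26 pseudogene rows and 7 rows of antisense or divergent noncoding genes with such names were left out. They held 619 and 6158 counts over all libraries, against 587580 in the members. The samples were 3 libraries of wild-type cells treated with triptolide at 10 nM for 24 h and 3 libraries of wild-type cells kept for 24 h in serum-containing DMEM without treatment. The series' design text calls the triptolide cells its control, and the groups here follow the treatment given for each sample. No vehicle is named for the untreated cells. Triptolide is a plant diterpenoid known to bind XPB, a subunit of TFIIH. Whether the 3 libraries of each group are separate cultures is not stated in the labels, and the spread behind the p-values may therefore be technical. Each value is a part of a library, so less of an RNA per cell and a shift in the make-up of the RNA pool cannot be told apart.

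Mitochondrial ribosomes translate the few mRNAs that mitochondrial DNA encodes, which are core subunits of the respiratory chain and of ATP synthase. Their RNAs come from mitochondrial DNA, while every protein of their large and small subunits is made in the cytosol from nuclear mRNA and imported. Many of these proteins are counterparts of bacterial ribosomal proteins, and others are found only in mitochondrial ribosomes. Pancreatic carcinoma cells use mitochondrial respiration beside glycolysis.

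With triptolide, 9 of the 77 genes fell, 0 rose and 68 did not pass the test. Genes are said to have fallen or risen at an adjusted p under 0.05 in edgeR's quasi-likelihood test, adjusted over all 15202 genes tested. Over all genes tested, 5.82% fell and 10% rose. The 9 that fell were MRPL42, MRPL48, MRPL54 and MRPL27 of the large subunit and MRPS28, MRPS26, MRPS10, MRPS35 and MRPS23 of the small subunit. The median log2 fold change of the 77 genes was -0.26, beside -0.004 for all genes tested, and 66 of the 77 fold changes lay below 0, beside 50.3% of all genes tested. At an unadjusted p under 0.05 there were 24 lower and 1 higher, where 13.8% and 17.1% of all genes tested were. DESeq2 called 13 of the 77 lower and 0 higher, beside 5.82% and 6.82% of the genes to which it gave an adjusted p. With limma-voom these counts were 10 and 0, beside 5.91% and 9.76%.

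The number that fell depended on the processing and on single libraries. It was 27 with an offset for GC content, where 17.3% of all genes fell, and 16 without the low-count filter, where 3.32% did. It was 3 of 74 genes (4.05%) where a mean level of 5 CPM (counts scaled to a common library size) was required. That share was near the 3.27% of all genes that fell there. This filter left MRPS28 out, while MRPS26, MRPL27, MRPS10, MRPS35 and MRPS23 were kept and did not pass. With scaling on cytosolic ribosomal protein genes the number that fell was 1, MRPL42 (1.30%), beside 0.842% of all genes.

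Without triptolide replicates 1, 2 or 3 in turn, 9, 18 and 3 of the 77 genes fell, beside 6.58%, 5.77% and 2.96% of all genes. Without untreated replicates 1, 2 or 3 in turn, 7, 5 and 3 fell, beside 3.34%, 2.56% and 4.53%. Without untreated replicate 3 the share of the 77 genes that fell, 3.90%, was thus below that of all genes, and without triptolide replicate 3 the same 3.90% was near it.

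**Figure D1:**
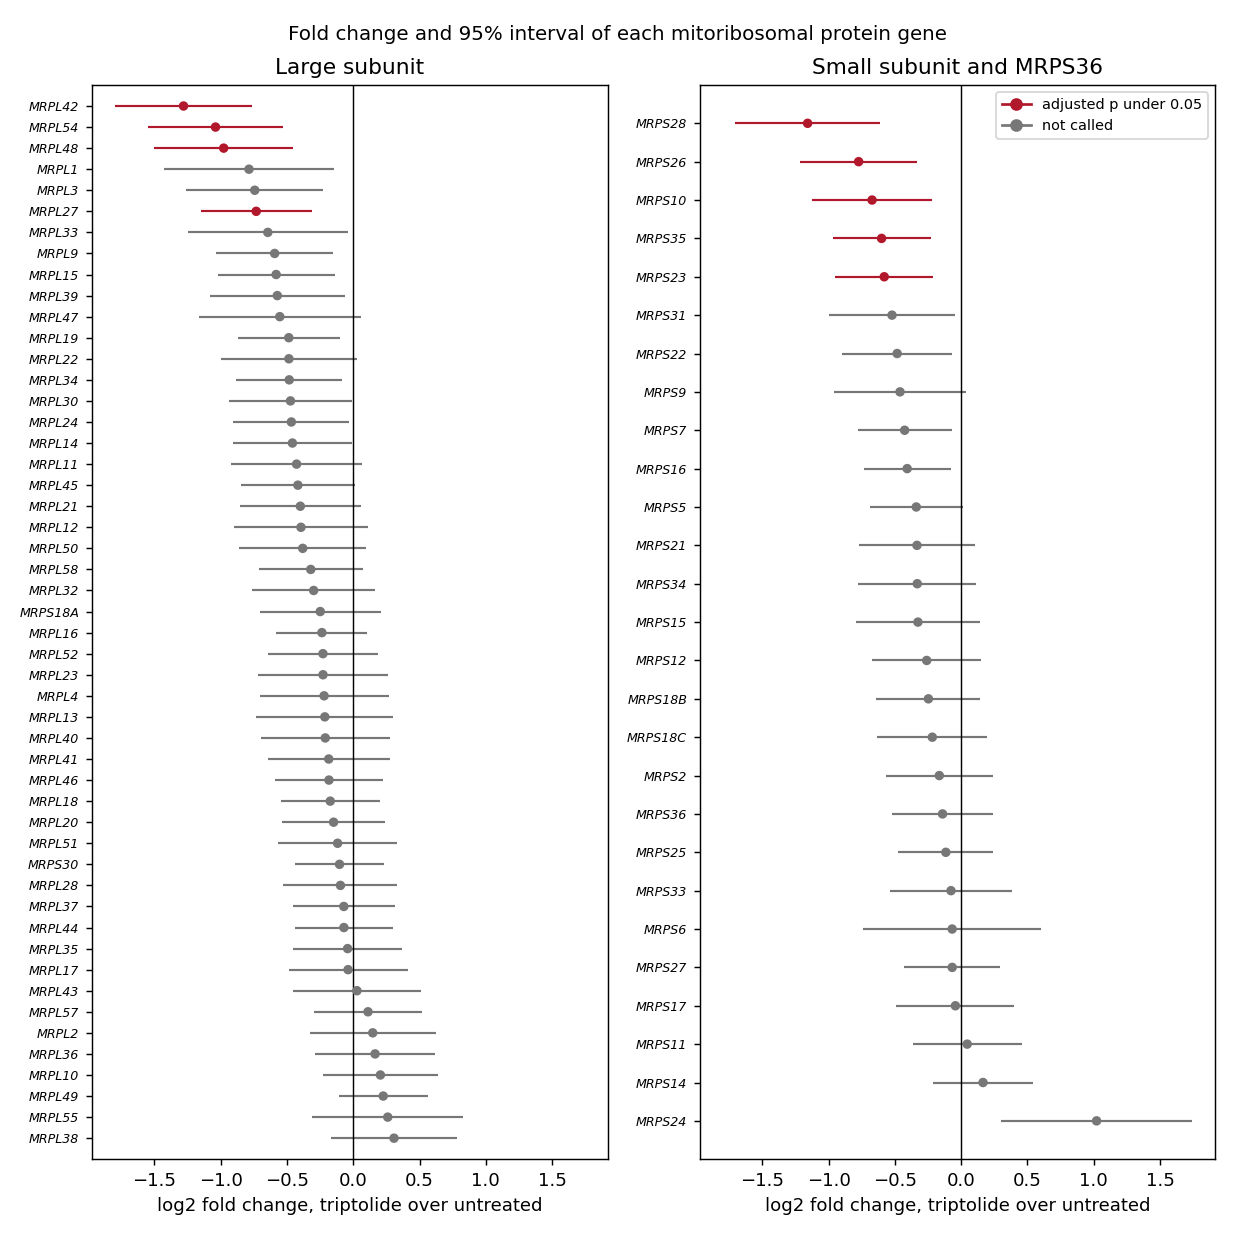
Log2 fold change, triptolide over untreated (x axis), of each of the 77 genes (y axis), with the large subunit on the left and the small subunit and MRPS36 on the right. Points are edgeR estimates, lines are 95% intervals, and red marks the 9 genes with an adjusted p under 0.05, all of them below 0.

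The libraries held from 16302961 to 23262713 counts, and no gene among the 77 had fewer than 12 counts in any library. Untreated replicate 3 differed more from the other untreated libraries (chi-square over degrees of freedom of 40.8 and 30.05) than they did from each other (4.96), and the triptolide libraries differed among themselves by 25.6 to 61.9. Keratins and epithelial markers were looked up, and they do not by themselves settle the label of a ductal carcinoma line. KRT8 had means of 1587 and 1894 CPM and KRT18 of 503 and 870 CPM in triptolide and untreated cells. EPCAM and CDH1, epithelial surface genes, were near 0 in both groups. KRT7, KRT19 and MUC1 were the others of the 7 markers on this list. Of the 5 tested, KRT18 alone fell and 0 rose, where 5.82% and 10% of all genes tested did. The sum of all 7 was 1978 to 2638 CPM with triptolide and 2580 to 3685 CPM without, and by group means most of it was KRT8. Of 21 tested placental trophoblast markers, 19 rose and 0 fell, where 10% and 5.82% of all genes tested did. The summed level of all 26 markers was 598 to 971 CPM in triptolide libraries and 28 to 30.5 CPM in untreated libraries. In untreated libraries 6 of them stood at 0 counts, PSG2, PSG6, HSD3B1, ERVFRD-1, GCM1 and INSL4. Of 15 tested fibroblast and mesenchymal markers, 9 fell and 0 rose, beside the same 5.82% and 10% of all genes tested. The sum of all 18 markers was 455 to 615 CPM with triptolide and 775 to 921 CPM without. FAP and CDH2 stood at 0 counts in the triptolide libraries. CSH1, a placental lactogen gene, had 430.0 ± 175 and 4.92 ± 0.14 CPM and COL1A1, a collagen gene, 2.83 ± 0.50 and 61.1 ± 12.1 CPM in triptolide and untreated cells (SD, n = 3 libraries each). All 6 libraries are labelled MIA PaCa-2. Whether they hold other cells was not tested, and neither was the part of these RNAs in any result given here.

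The largest decrease was in MRPL42 (ENSG00000198015), a large-subunit protein without a bacterial counterpart. It stood at 10.0, 20.8 and 16.3 CPM in the triptolide libraries and at 36.1, 36.4 and 42.4 CPM in the untreated libraries. The groups did not overlap, and the highest triptolide library lay well below the lowest untreated one. It fell 2.43-fold, or by a log2 value of -1.28 ± 0.24 (SE; edgeR adjusted p = 0.00378). It passed the test in each of the 15 alternatives, at adjusted p-values of up to 0.0448. The pseudogene row MRPL42P1 held 1 count.

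MRPS28 (ENSG00000147586), a small-subunit protein counted among the bacterial counterparts, was the least abundant of the 9. It had 1.45, 1.71 and 2.08 CPM with triptolide and 3.70, 3.32 and 4.79 CPM without, again with no overlap. It fell 2.23-fold (log2 -1.16 ± 0.25 SE, edgeR adjusted p = 0.00907), on 23 to 52 counts per triptolide library. Its exons share 35.8% of their bases with another gene on the same strand in GENCODE 29. MRPL54 (ENSG00000183617), a large-subunit protein particular to mitochondria, stood at 13.1, 16.1 and 10.9 CPM with triptolide and at 22.4, 22.7 and 37.3 CPM without. The single high value was untreated replicate 3, and the groups did not overlap. It fell 2.06-fold (log2 -1.04 ± 0.23 SE, edgeR adjusted p = 0.0109). MRPS28 and MRPL54 passed without each library in turn, and their adjusted p was 0.0932 and 0.0587 with scaling on cytosolic ribosomal protein genes.

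MRPL48 (ENSG00000175581), another large-subunit protein without a bacterial counterpart, had 5.86, 10.3 and 7.51 CPM with triptolide and 15.6, 12.2 and 19.0 CPM without. It fell 1.97-fold (log2 -0.98 ± 0.24 SE, edgeR adjusted p = 0.0170), and its adjusted p was 0.0540 without triptolide replicate 3 and 0.0586 without untreated replicate 3. MRPL27 (ENSG00000108826), the counterpart of a bacterial protein that reaches towards the peptidyl transferase centre, had 22.3, 20.4 and 19.2 CPM with triptolide and 27.7, 31.9 and 43.1 CPM without. The triptolide libraries were close together and the untreated ones spread. It fell 1.66-fold (log2 -0.73 ± 0.19 SE, edgeR adjusted p = 0.0237), with adjusted p-values of 0.0937, 0.0572 and 0.0653 without triptolide replicate 3, untreated replicate 2 and untreated replicate 3.

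MRPS26 (ENSG00000125901), a small-subunit protein particular to mitochondria, stood at 75.005, 53.3 and 49.9996 CPM in the triptolide libraries and at 90.2, 90.4 and 124 CPM in the untreated libraries. It fell 1.71-fold (log2 -0.77 ± 0.20 SE, edgeR adjusted p = 0.0228), with adjusted p-values of 0.0501, 0.0982 and 0.0611 without triptolide replicate 2, triptolide replicate 3 and untreated replicate 3. Unlike most of the 9, it was highest in triptolide replicate 1 among the triptolide libraries. MRPL27 was too, and both stayed below every untreated library.

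Of the other small-subunit genes that fell, MRPS10 (ENSG00000048544), a bacterial counterpart in the head of the subunit, had 36.9, 67.4 and 54.1 CPM with triptolide and 76.8, 85.5 and 90.3 CPM without. It fell 1.59-fold (edgeR adjusted p = 0.0479), which was kept without triptolide replicate 2 and lost without each other library, at 0.0638 to 0.122. MRPS35 (ENSG00000061794) had 58.4, 82.3 and 68.4 CPM with triptolide and 100.4, 105 and 112 CPM without. It fell 1.52-fold (edgeR adjusted p = 0.0324), which was kept without triptolide replicates 1 or 2 and lost without triptolide replicate 3 (0.113) or untreated replicates 1, 2 or 3 (0.0702, 0.106 and 0.0688). MRPS23 (ENSG00000181610) had 62.2, 65.6 and 61.4 CPM with triptolide and 82.2, 86.9 and 114 CPM without. It fell 1.49-fold (edgeR adjusted p = 0.0375), which was kept without triptolide replicate 1 and lost without each other library, at 0.0525 to 0.128. MRPS35 and MRPS23 are both particular to mitochondrial ribosomes. They and MRPS10 lost the call with library totals in place of TMM scaling.

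**Figure D2:**
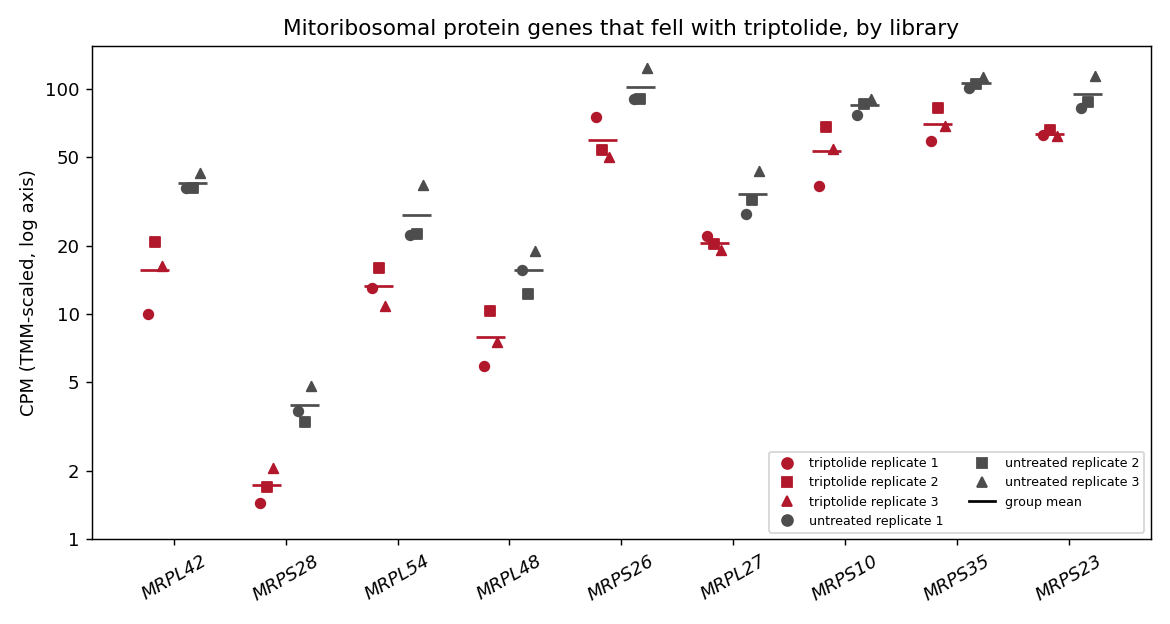
CPM on a log axis (y axis) of the 9 genes that fell (x axis), with 3 triptolide libraries (red) left of 3 untreated libraries (grey) for each gene. Point shapes are replicates and horizontal lines are group means. Every triptolide point lies below every untreated point of the same gene.

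By subunit, 5 of 26 small-subunit genes (19.2%) and 4 of 50 large-subunit genes (8%) fell, beside 5.82% of all genes tested. Their median log2 fold changes were -0.33 and -0.24. MRPS18C is counted as a bacterial counterpart and its paralogs MRPS18A and MRPS18B as particular to mitochondria, where they take other places in the ribosome. MRPS30 and MRPS18A are counted in the large subunit, where their proteins are found. MRPS36, whose product is now known as a subunit of the 2-oxoglutarate dehydrogenase complex, is in neither count. By origin, 6 of 30 genes for proteins particular to mitochondria fell (20%) and 3 of 46 with a bacterial counterpart (6.52%). Their medians were -0.24 and -0.33. The order of the medians was thus opposite to the order of the shares. The order of the shares was not the same in every setting. With the replicate block 3 of 26 small-subunit and 7 of 50 large-subunit genes fell, beside 5.63% of all genes. At a mean of at least 5 CPM these counts were 0 of 24 and 3 of 49, beside 3.27%. With the GC offset 10 of 30 genes particular to mitochondria (33.3%) and 17 of 46 bacterial counterparts (37.0%) fell, beside 17.3%. The differences between these classes were not tested.

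Summed over its genes, the small subunit had 1528, 1672 and 1395 CPM in the triptolide libraries and 1701, 1809.6 and 2195 CPM in the untreated libraries, with no overlap. The large subunit had 2973, 3355 and 2679 CPM with triptolide and 3081, 3258 and 4325 CPM without, and here the groups overlapped. All 77 genes took 0.441%, 0.513% and 0.442% of the counts with triptolide and 0.489%, 0.505% and 0.608% without. These shares also overlapped, and the highest was again untreated replicate 3. For 61 of the 77 genes that library was the highest of the 6. Without it the median log2 fold change was -0.15, beside 0.01 for all genes, and the 3 genes that fell, 3.90% beside 4.53% of all genes, were MRPL42, MRPS28 and MRPL54.

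**Figure D3:**
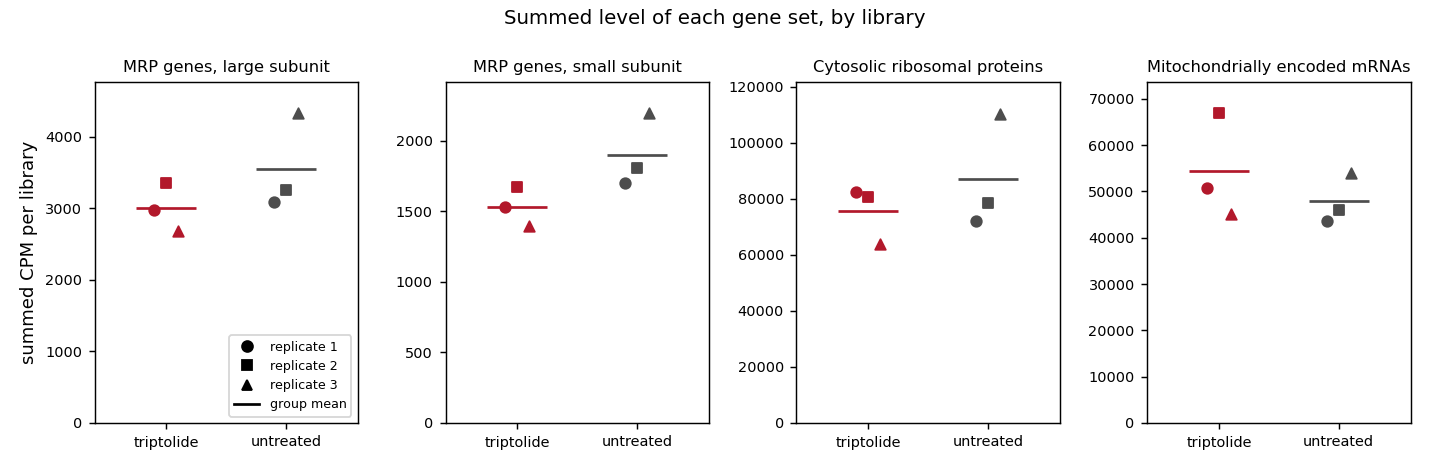
Summed CPM per library (y axis, from 0) of large-subunit genes, small-subunit genes, cytosolic ribosomal protein genes and mitochondrially encoded mRNAs, with triptolide left of untreated in each panel. Points are libraries and lines are group means. Small-subunit sums do not overlap, and untreated replicate 3 is the highest library in the first 3 panels.

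In 23 of the 77 genes every triptolide library lay below every untreated library, where 16.9% of all genes tested did so, and in 2 genes every triptolide library lay above, where 19.8% did. Among the 23 were 14 that did not pass the test. MRPL3 (ENSG00000114686), the counterpart of a bacterial protein whose extension reaches near the peptidyl transferase centre, was the most abundant of these. It had 78.3, 158 and 112 CPM with triptolide and 161, 192 and 231 CPM without. Its log2 fold change was -0.74 ± 0.24 (SE; edgeR adjusted p = 0.0521), and it passed in 7 of 15 alternatives. MRPL58, a peptidyl-tRNA hydrolase that became part of the large subunit, had 42.0 ± 5.97 and 52.5 ± 7.93 CPM in triptolide and untreated cells (SD, n = 3 libraries each), with a log2 fold change of -0.32 and a 95% interval from -0.71 to 0.07. MRPL1, the counterpart of a mobile bacterial stalk protein, had a log2 fold change of -0.79, from -1.43 to -0.14, with triptolide replicate 2 inside the untreated range (edgeR adjusted p = 0.0911).

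The 2 genes with every triptolide library above were MRPS24 and MRPL49, and neither passed the test. MRPS24, a bacterial counterpart of the small subunit, had 40, 30 and 45 counts in the triptolide libraries and 12, 19 and 18 in the untreated libraries. Its log2 fold change was 1.02 ± 0.33 (SE, edgeR adjusted p = 0.0546), and it passed in 4 of 15 alternatives. GENCODE 29 has a read-through gene, URGCP-MRPS24, on the same strand over 23.2% of its exon bases, and reads of the 2 genes cannot be told apart there. MRPL49, particular to the large subunit of mitochondria, had 52.5, 55.8 and 52.4 CPM with triptolide and 42.6, 46.1 and 48.7 CPM without, with a log2 fold change of 0.23 and a 95% interval from -0.11 to 0.56.

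The other genes at the upper end did not pass the test, and their groups overlapped. MRPL55 had 118, 63.2 and 59.1 CPM with triptolide and 55.3, 60.3 and 84.6 CPM without, and MRPL10, a protein at the base of the stalk that carries MRPL12, had 149.8, 94.2 and 94.3 CPM with triptolide and 101, 88.9 and 104 CPM without. In both the one high triptolide value was replicate 1, and without it their log2 fold changes of 0.26 and 0.20 became -0.11 and -0.04. MRPL36 and MRPS14, both bacterial counterparts, had log2 fold changes of 0.16 and 0.17, with 95% intervals from -0.29 to 0.62 and from -0.21 to 0.54. MRPL38 had 4.44 ± 0.74 and 3.61 ± 0.32 CPM in triptolide and untreated cells (SD, n = 3 libraries each; edgeR adjusted p = 0.374), and 37.5% of its exon bases lie in another gene on the same strand.

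Several of the most abundant genes by CPM did not pass the test with the main settings, and MRPS2 fell with the GC offset (edgeR adjusted p = 0.0443). MRPL37, particular to the large subunit, had 202 ± 22.3 and 212 ± 39.2 CPM in triptolide and untreated cells, and MRPL51, also particular to it, 173 ± 33.3 and 187 ± 47.9 CPM (SD, n = 3 libraries each). Their log2 fold changes were -0.07 (95% interval -0.45 to 0.31) and -0.12 (-0.57 to 0.33). MRPS27, a pentatricopeptide repeat protein of the small subunit, was at -0.07 (-0.43 to 0.29), MRPS2 at -0.16 (-0.57 to 0.24), and MRPS21, a bacterial counterpart, at -0.33 (-0.77 to 0.11). With scaling on cytosolic ribosomal protein genes the first 4 of these values were above 0. For 59 of the 68 genes not called, the 95% interval lay inside -1 to 1, so that a change of more than 1 log2 unit lay outside it. Per kilobase of exon, the mean level over all 6 libraries ran from 0.532 CPM in MRPS24 to 116 CPM in MRPL51, with a median of 20.7 CPM. Exon lengths are unions over GENCODE 29 transcripts, which need not match the annotation the authors counted on.

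Genes chosen for their known roles did not pass the test with the main settings. With the GC offset MRPL12, MRPS12, MRPL41 and MRPL58 fell, at edgeR adjusted p-values of 0.0198, 0.0174, 0.0350 and 0.0342. MRPL12 and MRPL11, stalk proteins where translation factors bind, had log2 fold changes of -0.39 (95% interval -0.90 to 0.11) and -0.43 (-0.92 to 0.07). For MRPL12, 68.2% of the exon bases lie in another gene on the same strand. MRPS12, the counterpart of the bacterial protein at the decoding site, was at -0.26 (-0.67 to 0.15), and MRPL32, which in yeast and mouse is processed by the m-AAA protease, at -0.30 (-0.76 to 0.16). MRPL41 was at -0.19 (-0.64 to 0.27), MRPS30 at -0.10 (-0.44 to 0.23) and MRPS36 at -0.14 (-0.52 to 0.24), and these 3 were above 0 with scaling on cytosolic ribosomal protein genes. MRPS18A, MRPS18B and MRPS18C, human paralogs related to one bacterial small-subunit protein, had values close to each other, at -0.25, -0.25 and -0.22, with 95% intervals from -0.71 to 0.21, from -0.64 to 0.15 and from -0.63 to 0.20.

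The GC content of the transcripts moved with the values, most in triptolide replicate 1. Across the 77 genes, the log2 level relative to the untreated mean had a Pearson correlation with GC of 0.48 in triptolide replicate 1, -0.12 in replicate 2 and -0.01 in replicate 3, and over all genes tested it was 0.50, -0.02 and 0.03. In untreated replicates 1, 2 and 3 it was -0.27, -0.11 and 0.26 across the 77 genes and -0.10, -0.33 and 0.27 across all genes. These are descriptions across genes, which are not independent. Of the 39 genes at or below the median GC of 47.6%, 27 had their lowest value in triptolide replicate 1, against 5 of the 38 genes above it. Triptolide replicate 3 was the lowest library for 5 of the 39 and for 24 of the 38. Of the genes that fell, 7 were at or below the median GC and 2, MRPL54 and MRPS26, above it.

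With an offset that removes the trend with GC in each library, 27 of the 77 genes fell and 0 rose, and the 9 genes were all among the 27. The median log2 fold change was then -0.41, beside -0.08 for all genes tested. It was -0.41 both at or below and above the median GC, where it had been -0.42 and -0.22 without the offset. Without triptolide replicate 1 and with no offset, 9 genes fell, 8 of them the same, with MRPS16 in place of MRPS10.

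**Figure D4:**
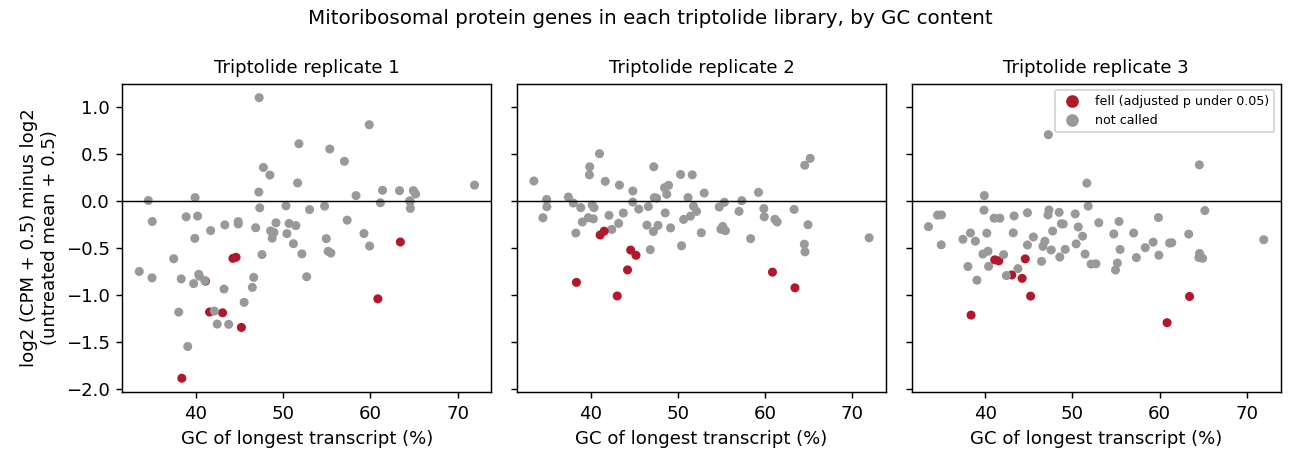
Log2 of CPM + 0.5 in each triptolide library minus that of the untreated mean (y axis) against the GC content of the longest transcript (x axis, percent) for the 77 genes. Red points are the 9 genes that fell. In replicate 1 the values climb with GC (correlation 0.48), and in replicates 2 and 3 they do not (-0.12 and -0.01).

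Promoter sequences in RefSeq's table for GRCh38.p14 were matched for 68 of the 77 genes, with 84 promoters, each 250 bases before to 50 after the start of the gene. These genes are known as housekeeping genes, and ETS-family factors such as GABPA, YY1 and NRF1 are known to act on many nuclear genes of mitochondria. The letters CCGGAAG, a core that ETS factors recognise, were found on either strand in 32 of the 84 promoters (38.1%), which belong to 29 of the 68 genes. They were in 16.9% of promoters of other tested protein-coding genes and in 10.3% of all promoters in the table. The letters AAGATGGC, a YY1 core, were in 27.4%, 4.61% and 2.89% of these promoters, and GCGCATGC, part of the NRF1 site, in 7.14%, 4.72% and 3.05%. The letters TATAAA, at any place in the window and on either strand, were in 3.57%, 6.18% and 11.5%. CCGGAAG ends in the letters AAG with which AAGATGGC begins, so that a match of each can share them.

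Promoters of 1 gene can overlap, so matches at the same place in the genome were counted once, with their distance to the first start listed. Of 38 such ETS sites, 23 began in the 60 bases before the start, and of 22 YY1 sites, 16 lay after it. Of the 29 genes with an ETS match 6 fell, and of the 39 without one 2 fell, with median log2 fold changes of -0.33 and -0.25. Of the 21 with a YY1 match 2 fell, and of the 47 without one 6 fell, with medians of -0.25 and -0.33. These calls are those of the main settings alone, where 5.82% of all genes tested fell. The counts are descriptions, the differences by motif were not tested, and a match is not a measured binding site.

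The 250 bases before the start are shown for 4 of the genes that fell. MRPL27 and MRPS26 have ETS letters near the start. MRPL54 has these letters too, and TATAAA at the upstream end of its window, far from the start. MRPL42, with the largest decrease, has no ETS letters. The windows of MRPL27, MRPS26, MRPL54 and MRPL42 are chr17:50373185-50373434 (minus strand), chr20:3045802-3046051 (plus strand), chr19:3762432-3762681 (plus strand) and chr12:93467264-93467513 (plus strand) in GRCh38.p14. Capitals mark CCGGAAG or its reverse complement CTTCCGG, and AAGATGGC was not in these 4 windows.
MRPL27: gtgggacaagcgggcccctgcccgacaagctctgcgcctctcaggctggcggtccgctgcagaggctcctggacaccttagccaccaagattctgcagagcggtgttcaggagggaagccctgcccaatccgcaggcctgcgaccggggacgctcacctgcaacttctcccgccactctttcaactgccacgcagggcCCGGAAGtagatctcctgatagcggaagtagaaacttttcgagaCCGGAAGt
MRPS26: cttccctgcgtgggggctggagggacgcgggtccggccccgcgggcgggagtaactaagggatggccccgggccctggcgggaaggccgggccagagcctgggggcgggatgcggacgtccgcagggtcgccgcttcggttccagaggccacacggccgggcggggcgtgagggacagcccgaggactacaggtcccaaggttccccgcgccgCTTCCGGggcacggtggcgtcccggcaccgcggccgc
MRPL54: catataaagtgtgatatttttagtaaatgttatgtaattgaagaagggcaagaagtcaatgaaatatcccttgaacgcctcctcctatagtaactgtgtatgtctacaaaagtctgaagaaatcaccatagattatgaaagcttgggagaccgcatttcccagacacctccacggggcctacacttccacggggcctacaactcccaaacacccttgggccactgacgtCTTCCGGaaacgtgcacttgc
MRPL42: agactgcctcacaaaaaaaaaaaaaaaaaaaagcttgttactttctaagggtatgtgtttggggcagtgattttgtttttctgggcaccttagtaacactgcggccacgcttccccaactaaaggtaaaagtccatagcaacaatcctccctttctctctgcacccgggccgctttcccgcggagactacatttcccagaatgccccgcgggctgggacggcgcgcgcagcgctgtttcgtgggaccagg
MRPL27 has the letters at 2 places, both within the last 60 bases before its start. MRPL42 holds a YY1 match only in the 50 bases after the start.

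**Figure D5:**
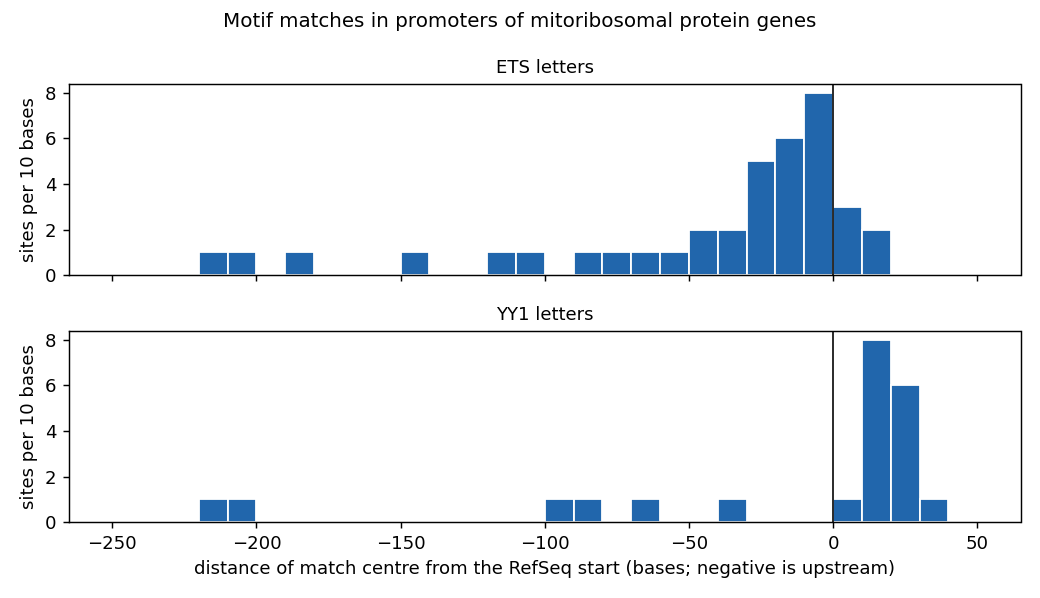
Number of distinct sites per 10 bases (y axis) to the ETS letters and to the YY1 letters by distance from the RefSeq start (x axis, bases, negative upstream) over the 84 promoters. ETS sites gather just before the start, with 23 of 38 in the last 60 bases, and YY1 sites just after it, with 16 of 22.

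Levels of the factors themselves did not pass the test. GABPA had 21.7 ± 7.39 and 32.6 ± 3.94 CPM (edgeR adjusted p = 0.125), NRF1 31.3 ± 6.38 and 32.6 ± 1.15 CPM (adjusted p = 0.863), and YY1 184 ± 33.9 and 160.8 ± 11.002 CPM (adjusted p = 0.472) in triptolide and untreated cells (SD, n = 3 libraries each). MYC, a transcription factor known to raise genes of mitochondrial biogenesis, had 248 ± 14.6 and 313 ± 17.9 CPM (adjusted p = 0.148), with no overlap between groups. Of the 8 tested regulators of mitochondrial biogenesis on the list, 0 fell and 0 rose in edgeR, beside 5.82% and 10% of all genes. Before adjustment, 3 of the 8 were lower with an edgeR p under 0.05 and 0 higher, beside 13.8% and 17.1% of all genes. In 4 of the 8, MYC among them, every triptolide library lay below every untreated library, beside 16.9% of all genes.

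Some other genes of mitochondrial translation fell as well. Of 29 assembly factors of the mitochondrial ribosome, 6 fell (20.7%) and 0 rose with the main settings, where 5.82% of all genes tested fell. Their median log2 fold change was -0.30. At an unadjusted p under 0.05 in edgeR there were 10 lower and 1 higher, where 13.8% and 17.1% of all genes were. TFB1M, which methylates the small ribosomal RNA of mitochondria, had 9.10 ± 0.23 and 16.1 ± 3.075 CPM in triptolide and untreated cells (SD, n = 3 libraries each). It fell 1.77-fold (edgeR adjusted p = 0.0125), with adjusted p-values of up to 0.0517 when single libraries were left out. YBEY, an endonuclease of mitochondrial ribosome assembly, fell 1.80-fold to 6.44 ± 0.87 CPM, against 11.6 ± 2.23 CPM untreated (edgeR adjusted p = 0.0162, and up to 0.0683 with a library left out).

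Of 19 mitochondrial translation factors, 5 fell (26.3%, beside 5.82% of all genes tested) and 0 rose with the main settings, with a median of -0.20. At an unadjusted p under 0.05 in edgeR there were 6 lower and 1 higher, where 13.8% and 17.1% of all genes tested were. MTIF2, the initiation factor that places the first tRNA, fell 2.13-fold to 26.1 ± 8.21 CPM, against 55.7 ± 1.082 CPM in untreated cells (edgeR adjusted p = 0.00639, and up to 0.0198 with a library left out). MTRFR, a rescue factor for stalled mitochondrial ribosomes, fell 1.504-fold to 16.3 ± 1.84 CPM, against 24.5 ± 0.80 CPM (edgeR adjusted p = 0.0326, and up to 0.110 with a library left out). Of 5 mitochondrial ribosomal proteins with other symbols 0 passed in edgeR, where 5.82% of all genes tested fell and 10% rose. At an unadjusted p under 0.05 in edgeR 2 of the 5 were lower, beside 13.8% of all genes. DAP3, a small-subunit GTP-binding protein, had a log2 fold change of -0.35 ± 0.18 (SE, edgeR adjusted p = 0.209) and AURKAIP1 of -0.20 ± 0.21 (adjusted p = 0.556). Of 5 mitochondrial transcription factors 0 passed in edgeR, with 2 lower at an unadjusted p under 0.05, beside the same shares of all genes. TFAM and POLRMT had log2 fold changes of 0.14 and -0.31.

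The summed RNAs that mitochondrial DNA encodes overlapped between the groups. Of the 13 mRNAs 0 passed in edgeR, where 5.82% of all genes tested fell and 10% rose. At an unadjusted p under 0.05 in edgeR 1 was higher and 0 lower, where 17.1% and 13.8% of all genes were. The median log2 fold change of the 13 mRNAs was 0.16. The summed level was 50786, 66963 and 45203 CPM with triptolide and 43676, 45919.5 and 54062 CPM without. MT-CO1 had a log2 fold change of 0.12 ± 0.19 (SE) and MT-CO3 of 0.16 ± 0.20. The ribosomal RNAs MT-RNR1 and MT-RNR2, which these poly(A)-selected libraries catch only in part, were at 0.01 ± 0.22 and 0.10 ± 0.25. Without triptolide replicate 2, the highest library for these sums, the values of all 4 genes were below 0, at -0.044, -0.025, -0.16 and -0.22.

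Among the gene groups most like them, the cytosolic ribosomal protein genes had 82 members tested, of which 3 fell (3.66%) and 0 rose. The nuclear genes for complex I had 36 tested, of which 1 fell (2.78%) and 0 rose. With the main settings both shares lay under the 5.82% for all genes. The cytosolic share lay above that of all genes with no low-count filter (9 of 85, 10.6% beside 3.32%). It did so too without triptolide replicate 2 (10 of 82, 12.2% beside 5.77%) and slightly without untreated replicate 1 (3.66% beside 3.34%). In the other alternatives it lay below, and the complex I share lay below in all of them. In log2 units the main medians of the cytosolic and complex I genes were -0.24 and -0.14. Values below 0 were found for 80 cytosolic genes (97.6%) and 29 complex I genes (80.6%), beside 50.3% for all genes. A shift to below 0 was thus not particular to the mitochondrial ribosomal protein genes, where 85.7% lay there. With scaling on the cytosolic group the median of all genes moved to 0.17 and that of the mitochondrial ribosomal protein genes to -0.08, a difference of -0.25, beside -0.26 with the main scaling. Over the 15 alternatives this difference between medians ran from -0.16, without untreated replicate 3, to -0.40. The difference between the mitochondrial and the cytosolic group was not tested.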

How the data were processed

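Poly(A)-selected RNA was sequenced as 150 bp read pairs, per the labels' protocols, in 3 triptolide and 3 untreated libraries. The authors deposited raw counts per Ensembl gene ID, whole numbers whose totals differ between libraries. The submitters' processing notes name HISAT2 and featureCounts. No source used here gives the genome build, annotation, strand setting or treatment of multi-mapping reads, so that overlapping genes and near-identical copies are uncertain.

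Symbols matched 35639 of 35716 IDs, and gene types, exon lengths and GC came from GENCODE 29. filterByExpr kept 15202 genes, all 77 members among them. Counts were scaled by TMM and fitted on group alone in edgeR 4.0.16 (R 4.3.3), with p-values adjusted by Benjamini-Hochberg across the genes kept. CPM use TMM-scaled library sizes, and standard errors came from the fold change and its F statistic. Alternatives changed the scaling (RLE, library totals, or cytosolic ribosomal protein genes), the filter (none, or a minimum mean of 5 CPM) or the model: limma-voom (limma 3.58.1), DESeq2 1.42.0, a replicate block, a GC offset and each library left out.

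The members and lists were chosen with earlier results of these data known. Named members were those called, the 6 most and 3 least abundant, the 5 highest and 5 lowest fold changes at a mean of at least 5 CPM, the MRPS18 paralogs and 8 genes of known role. Other lists gave up to 2 genes per direction, those called or else the most abundant. MRPS16, KRT8, EPCAM, CDH1, NRF1, GABPA and the markers at 0 were named after their values were seen.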

Additional observations from a re-analysis of the deposited data

How the results depend on the processing

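The count of 9 genes that fell was within 1.5 times under RLE size factors, library totals, DESeq2, limma-voom and the replicate block. It was 27 with the GC offset, 16 with no low-count filter, 3 at a mean of at least 5 CPM and 1 with scaling on cytosolic ribosomal protein genes, and 3 to 18 when single libraries were left out. The low counts stand near or below the all-gene shares: 4.05% beside 3.27% at 5 CPM, 1.30% beside 0.842% with that scaling, and 3.90% beside 2.96% without triptolide replicate 3 and 4.53% without untreated replicate 3. The count that rose was 1 in place of 0 with library totals, with no filter and with the replicate block, each time MRPS24, and 0 to 1 with a library left out. The median log2 fold change ran from -0.15 to -0.39 with a library left out. With the replicate block 10 genes fell, beside 5.63% of all genes, 7 of the 9 among them (not MRPS35 and MRPS23). Same-numbered libraries had correlations of their deviations from the group mean of 0.03, -0.04 and -0.44, and no library correlated best with its own number. Deviations within groups of 3 libraries constrain one another, so these values cannot settle whether the libraries were paired.

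Signs turned in genes that did not pass the test, and values are given for named genes only. With scaling on cytosolic ribosomal protein genes 19 of the 77 genes turned from below to above 0, and the log2 fold changes were 0.0133 for MRPL41, 0.0143 for MRPS2, 0.0673 for MRPS36, 0.10 for MRPL51, 0.0838 for MRPS30, 0.13 for MRPL37, 0.11 for MRPS27 and 0.0139 for AURKAIP1. With the GC offset they were 0.0931 for MRPS36, 0.18 for MRPS30 and -0.0529 for MT-RNR1. At a mean of at least 5 CPM they were 0.0117 for MRPL37 and 0.0139 for MRPS27, with library totals 0.00058 for MRPS27, and with DESeq2 -0.0197 for MT-RNR1. With single libraries left out the ranges were -0.38 to 0.0037 for MRPL41, -0.24 to 0.0099 for MRPS36, -0.28 to 0.10 for MRPL51, -0.18 to 0.0752 for MRPL37, -0.20 to 0.0326 for MRPS27, -0.0363 to 0.32 for MRPL10, -0.11 to 0.45 for MRPL55, -0.33 to 0.0590 for AURKAIP1, -0.0444 to 0.23 for MT-CO1, -0.0246 to 0.31 for MT-CO3, -0.16 to 0.25 for MT-RNR1 and -0.22 to 0.31 for MT-RNR2. The cause was not tested. Depth limits MRPS24 and MRPS28 most, with 12 to 87 counts per library.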
